A study of Danio rerio with 5 samples.

Results

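Pou5f3, Nanog, Sall4, Lin28a and Klf17 are regulators that zebrafish blastulae share with the pluripotency network of mammalian stem cells. The messages of their 5 genes were compared here between the mid-blastula transition and a later stage. No library was from before the transition, so a maternal baseline was not measured. They were found by symbol in a deposited table of 22656 genes. The 6 listed names gave 5 rows, because klf4b is an older name of klf17 in RefSeq. The embryos were of the Tübingen strain, carried no stated mutation or treatment, were grown at 28 °C, and were freed of chorion and yolk before total RNA was extracted. Libraries came from sphere-stage embryos at 4 hours post-fertilisation (hpf; MBT, n = 3) and from 30% epiboly embryos at 5.3 hpf (post-MBT, n = 2). Whether replicate libraries stem from different clutches is not stated in the labels, and the p-values below therefore reflect only how these 5 libraries vary, in part perhaps for technical reasons.

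As background, the zebrafish embryo starts with maternal messages and begins bulk transcription of its own genome at the mid-blastula transition. Maternal Pou5f3, a POU-domain factor related to mammalian Oct4, Nanog, a homeodomain factor, and SoxB1 proteins bind many of the first genes to be transcribed and are needed for their activation. Sall4 is a zinc-finger protein of the Spalt family that works beside Oct4 in mouse stem cells. Lin28a is an RNA-binding protein best known for blocking the maturation of let-7 microRNAs. Klf17 is a Krüppel-like zinc-finger factor known in zebrafish for roles in the hatching gland and in early blood.

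The libraries held 2488983, 3641226 and 2781303 counts at the MBT (libraries A, B and C) and 3701401 and 3204831 counts after it (libraries A and B), of which mitochondrial genes took 43.0% to 51.5%. Levels are counts per 1000000 counts (CPM) scaled with TMM factors, which assume that most genes did not change. The calls given below, in which most tested genes rose or fell, do not meet this assumption. Rises and falls are therefore relative to the other genes and are not amounts per embryo. All 5 genes had enough counts to be tested. Against 12007 tested genes, of which 31.0% rose and 31.8% fell, 3 of the 5 rose (pou5f3, sall4 and lin28a), 1 fell slightly (nanog) and klf17 had no call. A call is an adjusted p under 0.05 in the quasi-likelihood test of edgeR, adjusted over all tested genes by Benjamini and Hochberg. In bulk embryos a change in the number of cells that hold a message and a change in its amount per cell cannot be told apart.

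The Oct4-related gene pou5f3 (chromosome 21, 13589124 to 13594487, minus strand) was at 384, 341.7 and 367.9 CPM in MBT A, B and C and at 1335 and 1296 CPM in post-MBT A and B. Both post-MBT libraries stood far above all 3 MBT libraries. The stages did not overlap for 73.9% of all tested genes. The mean went from 364.6 ± 21.3 CPM (SD, n = 3) to 1315 ± 27.3 CPM (SD, n = 2). The log2 fold change was 1.85 ± 0.07 (SE), a 3.62-fold rise, with an adjusted p of 1.14e-39 by edgeR. Of the tested genes, 6.94% had a higher log2 fold change.

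The Spalt-family gene sall4 (chromosome 23, 39227758 to 39236336, plus strand) had the most counts of the 5. It was at 1221, 1219 and 1254 CPM in MBT A, B and C and at 4118 and 4352 CPM in post-MBT A and B. The MBT libraries lay within a narrow range and the post-MBT libraries lay well above it, without overlap, as for 73.9% of all tested genes. The mean of 1232 ± 19.5 CPM (SD, n = 3) became 4235 ± 165.3 CPM (SD, n = 2). The log2 fold change was 1.78 ± 0.06, a 3.44-fold rise (adjusted p = 1.86e-41 by edgeR). A higher log2 fold change was found for 7.39% of the tested genes.

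The let-7 antagonist gene lin28a (chromosome 19, 15536691 to 15565733, plus strand) was a lower message and also rose. It was at 53.7, 53.7 and 58.8 CPM in MBT A, B and C, from 148, 233 and 168 counts, and at 133.6 and 139.3 CPM in post-MBT A and B, from 413 and 373 counts. The stages did not overlap, as for 73.9% of all tested genes. The log2 fold change was 1.30 ± 0.11, a 2.47-fold rise (adjusted p = 1.31e-18 by edgeR).

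The homeobox gene nanog (chromosome 24, 12689785 to 12694864, plus strand) did not follow pou5f3. It was at 750.3, 659 and 662.4 CPM in MBT A, B and C and at 616.1 and 624.1 CPM in post-MBT A and B. MBT A was the highest, and the post-MBT libraries lay just below the other two. The log2 fold change was -0.15 ± 0.07 (adjusted p = 0.0454 by edgeR, with a range of 2.24e-07 to 0.240 over 11 refits). This call was kept in 4 of the 11 refits. It was lost without MBT A (log2 fold change -0.11, adjusted p = 0.205 by edgeR), without post-MBT A (-0.14, adjusted p = 0.240) and without post-MBT B (-0.16, adjusted p = 0.197). The stages did not overlap for nanog, as for 73.9% of all tested genes.

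The Krüppel-like gene klf17 (chromosome 2, 33343319 to 33345470, plus strand) was at 82.7, 73.1 and 85.1 CPM in MBT A, B and C and at 70.5 and 74.0 CPM in post-MBT A and B. The libraries overlapped between the stages, since MBT B lay below post-MBT B. The log2 fold change was -0.14 ± 0.11 (adjusted p = 0.271 by edgeR, with a range of 2.30e-04 to 0.583 over 11 refits). The log2 differences of nanog and klf17 were thus close to the median of all tested genes, -0.04.

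**Figure D1:**
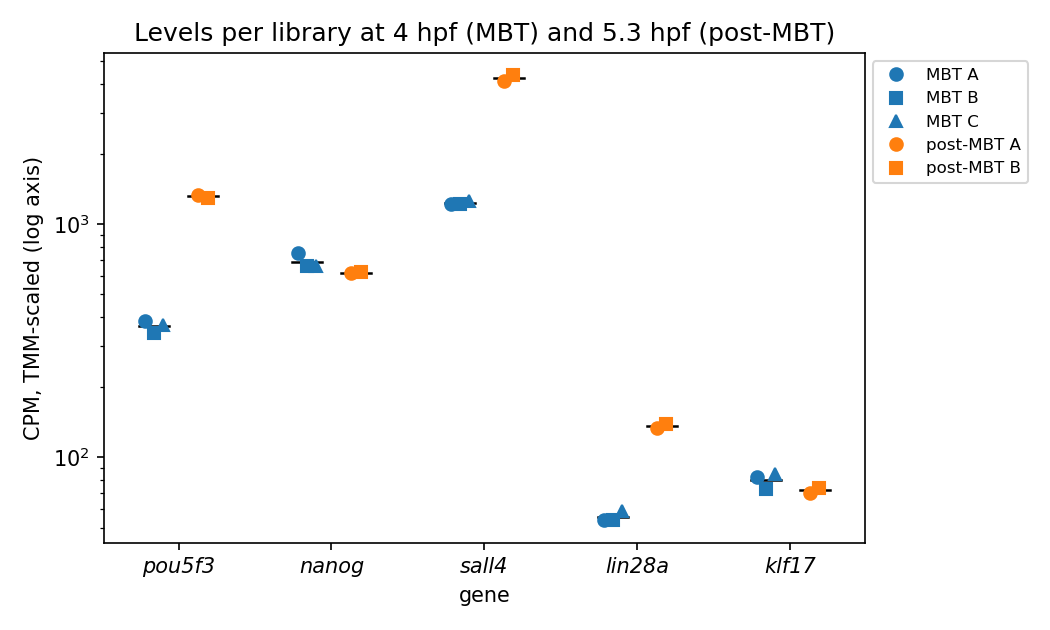
Level of each of the 5 genes in each library, in TMM-scaled CPM on a log axis; blue points are MBT libraries at 4 hpf, orange points post-MBT libraries at 5.3 hpf, and black bars the stage means. The post-MBT points of pou5f3, sall4 and lin28a lie above their MBT points, while those of nanog and klf17 lie near them.

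The size of each change depended on the scaling, and the direction of the 3 rises did not. Scaling by library totals in place of TMM factors moved the median over the tested genes, a log2 fold change, down: it fell by 0.41. Even so, the log2 fold changes were 1.45 for pou5f3, 1.37 for sall4 and 0.89 for lin28a, with adjusted p-values of 6.53e-31, 4.07e-30 and 1.23e-09 by edgeR. With library totals nanog changed by -0.56 and klf17 by -0.55 (adjusted p = 2.24e-07 and 2.30e-04 by edgeR). Both were called as falls on that scale, where 18.1% of tested genes were called as rises and 46.4% as falls. The authors' deposited table, made with DESeq2, gives log2 ratios of 4 hpf over 5.3 hpf of -1.86 for pou5f3, -1.79 for sall4, -1.30 for lin28a, 0.15 for nanog and 0.14 for klf17. In the authors' deposited table the scores, 10 times the negative log10 of the adjusted p, are 8.56 for nanog and 2.75 for klf17, and a score of 13 stands for an adjusted p of 0.05.

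**Figure D2:**
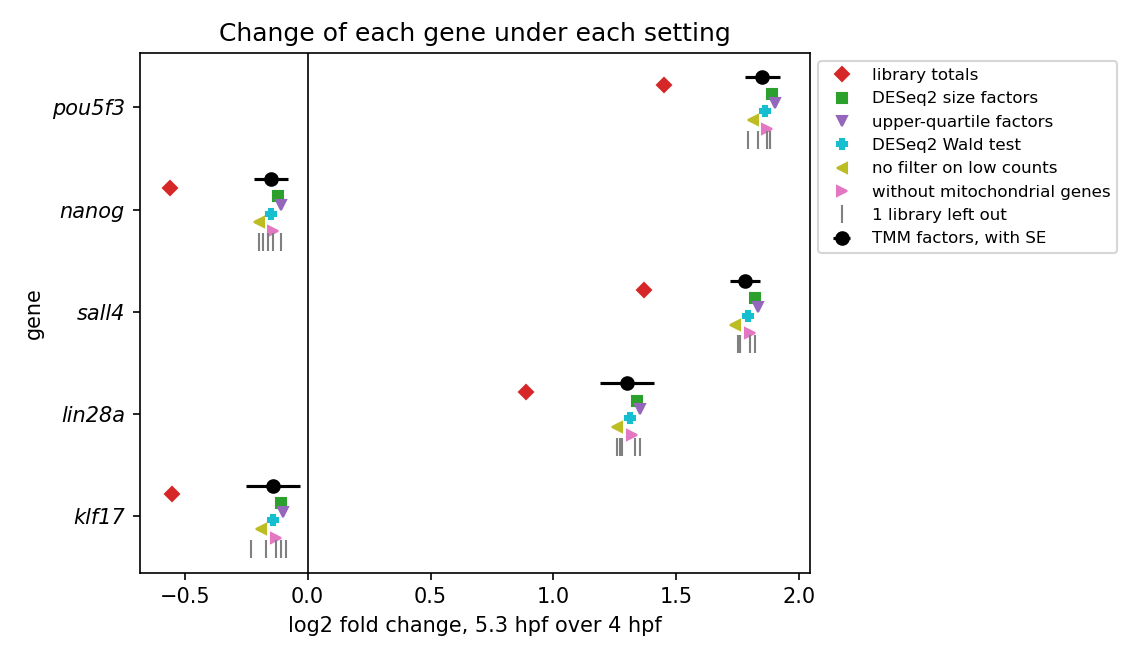
Log2 fold change (5.3 hpf over 4 hpf) of each gene with TMM factors (black, bars are SE) and under each other setting, with gray ticks for fits that leave out 1 library. Library totals, in red, lie to the left of all other points for every gene, and pou5f3, sall4 and lin28a stay above 0 under every setting.

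Levels of different genes can be compared only per length, so CPM were divided by the exonic length in kilobases. At the MBT the order was nanog, sall4, pou5f3, klf17 and lin28a. The MBT means of the level per kilobase were 369.3 ± 27.7 for nanog, 232.9 ± 3.68 for sall4 and 122.3 ± 7.16 for pou5f3 (SD, n = 3). They were 49.9 ± 3.94 for klf17 and 16.4 ± 0.876 for lin28a. Neighbours in this order did not overlap in any MBT library, with nanog lowest at 352.4 and sall4 highest at 237.1. After the MBT the order was sall4, pou5f3, nanog, klf17 and lin28a. The post-MBT means were 800.7 ± 31.3 for sall4, 441.4 ± 9.16 for pou5f3 and 331.6 ± 3.05 for nanog (SD, n = 2). They were 44.9 ± 1.5 for klf17 and 40.5 ± 1.19 for lin28a, whose libraries did not overlap but lay within 1.11-fold in the mean. Among the tested genes ranked by this level, sall4 went from place 66 to 22 and pou5f3 from 174 to 51. In the same ranking nanog went from place 39 to 73, klf17 from 657 to 1100 and lin28a from 3105 to 1248.

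A ratio between genes of 1 library does not depend on how the library is scaled. Per exonic length there were 0.321, 0.325 and 0.349 pou5f3 counts for each nanog count in MBT A, B and C, and 1.36 and 1.30 in post-MBT A and B. The gene with fewer counts per length at the MBT was thus the one with more after it, in every library. This ratio changed 4.02-fold, from 0.332 ± 0.0148 (SD, n = 3) to 1.33 ± 0.0399 (SD, n = 2). The ratio of pou5f3 to klf17 changed by a like size, 4.01-fold, from 2.46 ± 0.105 to 9.85 ± 0.534. That of pou5f3 to lin28a changed 1.47-fold, from 7.46 ± 0.557 to 10.9 ± 0.548. The ratio of pou5f3 to sall4 was 0.558, 0.497 and 0.521 in the MBT libraries and 0.575 and 0.529 in the post-MBT libraries, which overlap. By a 2-sided exact permutation test over the 10 splits of 5 libraries, p was 0.1 for the ratios to nanog, klf17 and lin28a, the smallest value this design allows, and 0.4 for the ratio to sall4. Adjusted over the 4 ratios, these exact p-values were 0.133 and 0.4.

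**Figure D3:**
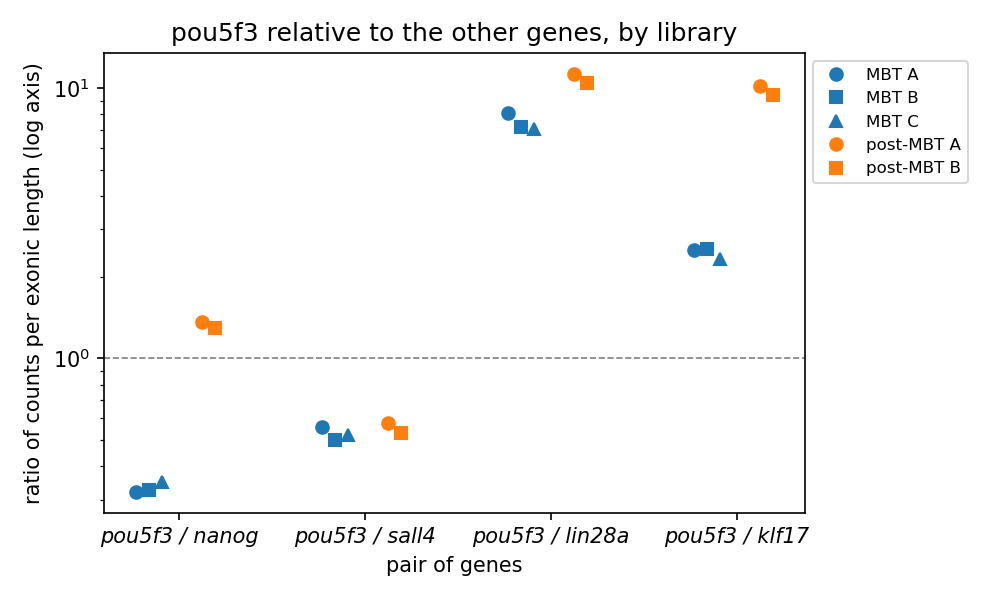
Ratio of pou5f3 counts to those of each other gene, each per exonic length, in each library on a log axis; the dashed line marks a ratio of 1. The ratio to nanog lies below 1 in the 3 MBT libraries and above 1 in both post-MBT libraries, while the ratio to sall4 overlaps between the stages.

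The authors also compared the use of exons within each gene. In the authors' deposited table, lin28a is the 1 gene of the 5 with an entry in this comparison. The entry names the segment from 15536691 to 15537219 on chromosome 19, which begins at the first listed base of lin28a. Its log2 ratio of 4 hpf over 5.3 hpf is 1.79 after the authors' correction for counts, and its score is 72.6. In that direction the segment held a larger share of the lin28a counts at 4 hpf. Of 815 genes with an entry in the authors' deposited table, 89 (10.9%) have a score of at least 13 and 18 have a score above that of lin28a. The score comes from a chi-square test on counts and takes no account of the spread between libraries, and counts per exon were not used here. The other 4 genes are listed at 0 with no exon named. No other gene of the table with a listed span under 1 Mb overlapped any of the 5, which matters because the counts carry no strand.

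The relatives of each gene moved in several directions, and the lists used were chosen with earlier results of these data known. Both tested Spalt relatives rose: sall1a from 18.8 ± 2.52 to 36.5 ± 7.82 CPM (log2 fold change 0.99 ± 0.18) and sall3b from 10.5 ± 2.31 to 25.7 ± 4.32 CPM (1.24 ± 0.22). Among all tested genes 31.0% rose. Both Spalt relatives lay far below sall4 in counts. The table held 13 other POU-domain genes. Of the 5 tested, 1 rose and 3 fell, with a median log2 fold change of -0.47, beside 31.0% and 31.8% of all tested genes. The Oct1-related pou2f1b rose from 35.3 ± 9.46 to 109 ± 17.5 CPM, and its paralog pou2f1a fell from 37.4 ± 4.38 to 26.8 ± 2.72 CPM. The genes pou6f1 (log2 fold change -1.52 ± 0.27) and pou3f3a (-2.65 ± 0.53) also fell. The call of pou2f1a was lost with the DESeq2 Wald test (adjusted p = 0.117).

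The table held 32 other Klf and Sp genes. Of the 23 tested, 9 rose and 9 fell, with a median log2 fold change of 0.13, where 31.0% of all tested genes rose and 31.8% fell. Scaled by library totals, 5 rose, 11 fell and the median was -0.28, close to the 18.1% and 46.4% of all tested genes on that scale. Without post-MBT A, 8 rose and 3 fell. With the DESeq2 Wald test 8 rose and 3 fell, where 20.3% and 17.2% of all genes tested that way did so. The Wnt-responsive factor genes sp5l and sp5a had log2 fold changes of 4.78 ± 0.32 and 4.29 ± 0.34, from means of 1.1 and 1.21 CPM at the MBT. The gene klf3 rose from 4.94 ± 0.921 to 35.6 ± 1.89 CPM, and zgc:153115, which RefSeq lists as klf16, from 119 ± 9.95 to 288 ± 8.60 CPM. The gene listed as klf4, on another chromosome than klf17, had 3, 1 and 3 counts at the MBT and 7 and 8 after it, too few to be tested.

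For the let-7 pathway around lin28a, 26 other genes were in the table and 19 were tested. Of these 10 rose and 5 fell, with a median log2 fold change of 0.43, where 31.0% of all tested genes rose and 31.8% fell. Scaled by library totals, 4 rose, 7 fell and the median was 0.02. On that scale 18.1% of all tested genes rose and 46.4% fell. The helicase gene ddx5 rose from 826 ± 44.0 to 2605 ± 3.54 CPM, the RNA-binding protein gene igf2bp1 from 29.1 ± 2.79 to 148 ± 7.69 CPM and ilf2 from 193 ± 9.39 to 440.5 ± 4.89 CPM. Genes of microRNA processing and silencing were found in both directions. The gene rnasen, which encodes the nuclear processing enzyme Drosha, fell from 83.5 ± 5.07 to 24.6 ± 3.23 CPM. Its partner gene dgcr8 had a log2 fold change of -0.32 ± 0.09 and the processing enzyme gene dicer1 one of -0.38 ± 0.08. The Argonaute genes ago1 and ago3b had log2 fold changes of -1.41 ± 0.19 and -0.57 ± 0.09, which completes the 5 falls. Against these, ago2 rose (0.49 ± 0.07), as did the terminal uridylyltransferase gene zcchc6 (0.56 ± 0.10) and trim71 (0.43 ± 0.08), while ago4, tarbp2 and xpo5 had no call. With library totals these 3 rises were not called (adjusted p = 0.504, 0.311 and 0.904 by edgeR), and ago4 and tarbp2 were called as falls. The relative lin28b had 2, 5 and 7 counts at the MBT and 7 and 7 after it. The 5 let-7 genes in the table had at most 2 counts in any library, too few to be tested. The libraries were made from total RNA with random hexamers and tagmentation, not for small RNAs, so mature let-7 was not measured.

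The SoxB1 genes, whose proteins act with Pou5f3, also moved in both directions. Of 4 tested, sox3, sox19a and sox2 rose, where 31.0% of all tested genes rose and 31.8% fell. The maternal sox19b fell from 181 ± 5.13 to 54.2 ± 6.23 CPM. The sox2 message had 0, 0 and 1 count at the MBT and 16 and 24 counts after it. In a wider list of stem-cell regulators, 28 of 35 genes in the table were tested, 19 rose and 3 fell, with a median log2 fold change of 0.63, beside 31.0% and 31.8% of all tested genes. Scaled by library totals, 13 rose, 8 fell and the median was 0.22, beside 18.1% and 46.4%. The AP-2 factor gene tfap2c rose from 8.08 ± 1.78 to 130 ± 6.54 CPM, tcf3b from 74.5 ± 6.44 to 271 ± 7.11 CPM and mych from 107 ± 11.4 to 262 ± 12.5 CPM. The falls were the corepressor gene rcor1 (log2 fold change -0.37 ± 0.08) and the orphan receptor genes nr6a1b (-2.26 ± 0.52) and esrrb (-1.19 ± 0.41). The call of esrrb was lost with the DESeq2 Wald test (adjusted p = 0.133).

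A last list held 32 developmental genes, among them genes linked in zebrafish work to Pou5f3 or Nanog. Its figure label, early zygotic regulators, does not describe every gene in it: her3 and egf had at most 3 counts in any library, and 4 tested genes, named below, fell. The list was chosen with earlier results of these data known, so its share of rises tests nothing about Pou5f3 or Nanog. Of 30 tested, 25 rose and 4 fell, with a median log2 fold change of 2.82, beside 31.0% and 31.8% of all tested genes. With library totals 23 rose and 4 fell, beside 18.1% and 46.4%. In this list tbx16, a T-box gene, rose from 137 ± 15.5 to 915 ± 26.2 CPM, the mesendoderm gene mixl1 from 9.64 ± 1.05 to 204 ± 4.83 CPM, the ventral repressor gene vent from 4.51 ± 0.679 to 118 ± 6.81 CPM and sox3 from 67.5 ± 5.49 to 383 ± 19.8 CPM. The falls were the head gene otx1b (log2 fold change -1.62 ± 0.13), klf2a (-0.88 ± 0.17), nr6a1b and the yolk syncytial layer gene mxtx2 (-0.57 ± 0.25), which is known to need Nanog. The mxtx2 call was lost in 8 of 11 refits, among them the DESeq2 Wald test (adjusted p = 0.266). The klf2a paralog klf2b was at 49.9 ± 4.84 CPM at the MBT and 56.9 ± 4.54 CPM after it (adjusted p = 0.240 by edgeR).

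**Figure D4:**
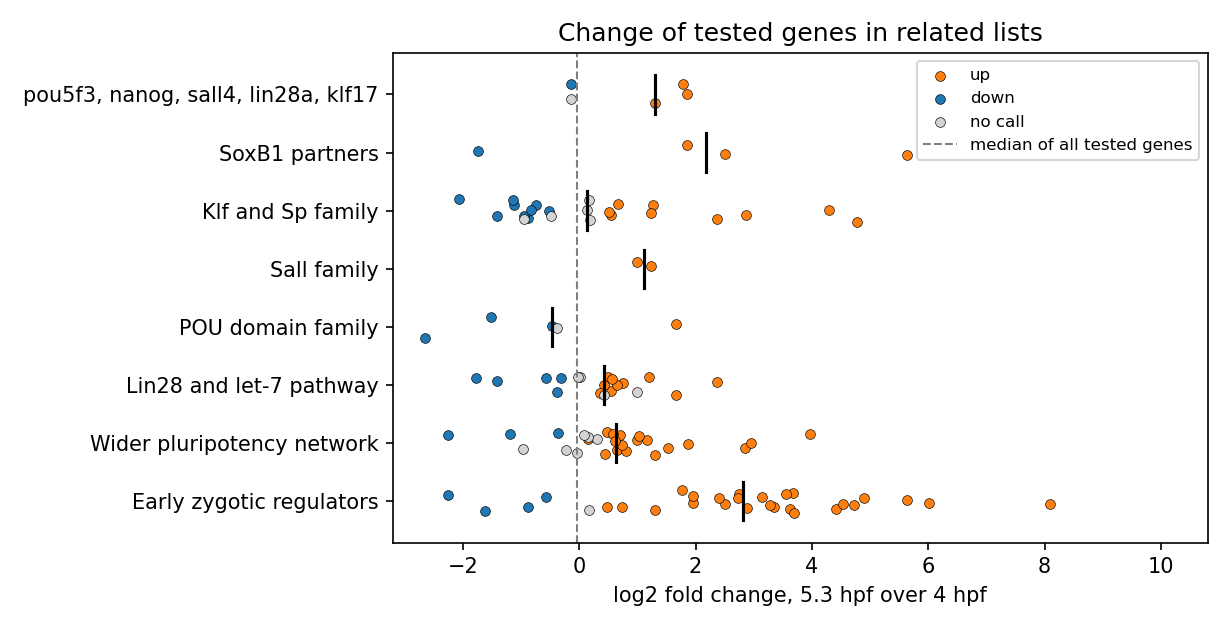
Log2 fold change (5.3 hpf over 4 hpf) of every tested gene of the 5 pluripotency genes and of 7 related lists; orange points rose, blue points fell, gray points had no call, black bars are list medians and the dashed line is the median of all tested genes. The Klf and Sp genes lie on both sides of that line, while most genes of the list labelled early zygotic regulators lie to its right.

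Markers of other cell types moved with the stage as well. Among all tested genes 31.0% rose and 31.8% fell, or 18.1% and 46.4% with library totals. Of 14 tested enveloping layer markers 12 rose and 1 fell (2 with library totals or without MBT A, none without post-MBT B), and the summed level of the 17 in the table went from 443.5 to 494.1 CPM at the MBT to between 1429 and 1446 CPM after it. The enveloping layer genes cyt1 and cyt1l had no count at the MBT. Of 5 tested prechordal plate and hatching gland markers 3 rose (foxa3, foxa2 and gsc) and none fell. In that list foxa3 went from 13.7 ± 0.676 to 176 ± 14.6 CPM, while cd63 and frzb had no call. Its genes he1a, ctsl1b, otx2 and prdm1a had at most 7 counts in any library and were not tested. Of 8 tested yolk syncytial layer markers 7 rose and 1 (mxtx2, whose call was lost in most refits) fell. With library totals 6 rose and with the DESeq2 Wald test 6 rose, beside 18.1% and 20.3% of all genes tested that way. Without MBT B 5 rose. The embryos had been freed of yolk, so how much of the yolk syncytial layer each library held is not known. Summed levels of the prechordal plate and yolk syncytial layer lists were 26.8 to 33.7 CPM and 46.8 to 56.7 CPM at the MBT. After it they were 225.2 to 237.9 CPM and 141.1 to 142.7 CPM. Single genes held much of these sums: foxa3 had 176 ± 14.6 CPM of the prechordal plate sum after the MBT. At the MBT gata3 had 34.1 ± 4.86 CPM of the yolk syncytial layer sum. The yolk syncytial layer regulator gene hnf4a had no count at the MBT. Of 10 germ plasm markers none rose and 7 fell. With library totals 10 fell and with the DESeq2 Wald test 5 fell, beside 46.4% and 17.2% of all genes tested that way. With DESeq2 size factors, with upper-quartile factors and without mitochondrial genes 1 was called up. Summed levels of the germ plasm markers were 849.6 to 882.5 CPM at the MBT and 544.9 to 570.0 CPM after it. Markers of differentiated tissues had at most 10 counts in any library, and none passed the count filter. With the DESeq2 Wald test and with no filter 1 was called up, the transferrin gene tfa, with 0, 0 and 1 count at the MBT and 6 and 8 after it. The part of these cell types in the levels of the 5 genes was not tested.

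Likeness to each of the 5 was measured on levels, so it weighs abundance as well as change. Genes with levels most like each of the 5 were taken as those with the smallest root mean square difference of log2(CPM + 1) over the 5 libraries. For pou5f3 these were the connexin gene cx43.4 (0.277), and the RNA-binding protein genes hnrnpa0b (0.311) and cirbp (0.312). The nearest to sall4 was the chromatin protein gene hmga1a (0.219), at 1016, 1066 and 1004 CPM in the MBT libraries and 3902 and 3907 CPM in the post-MBT libraries. The next were much farther from sall4, the chaperone gene hspa8 (0.488) and the mitochondrial ND2 (0.528). Their log2 fold changes were 0.87 and 0.76, beside 1.78 for sall4. For nanog the nearest were the lysosomal membrane gene lamp2 (0.112), wu:fb69f10 (0.211) and rif1 (0.233). Their log2 fold changes were -0.03, -0.23 and 0.15, beside -0.15 for nanog. For lin28a the nearest were si:ch211-114c12.2 (0.0657), LOC570405 (0.0798) and the splicing factor gene rbm39a (0.0809). For klf17 they were si:dkey-72l14.4 (0.0611), tjap1 (0.0631) and smchd1 (0.0644).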

How the data were processed

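Total RNA libraries were made per the labels' protocols from 5 ng of DNase-treated RNA with random hexamers, tagmentation and 10 PCR cycles. Novoalign 2.8 and DESeq2 are named in the submitters' processing notes, and the build is D_rerio_Sep_2014 per the file headers. The deposited values are whole-number counts of alignments touching each gene, per the file headers, with the exonic length of each gene. The deposited table also gives the authors' log2 ratios and their scores, and a comparison of exons with 5 or more counts with its own log2 ratio and score. Starts are given from 1. Count columns name the stage but not the sample, so libraries are called A to C, and 10 columns of other per-library values were not used.

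Genes were tested with edgeR 4.0.16 in R 4.3.3, by a robust quasi-likelihood fit on TMM factors with stage as the only term. Genes were kept by filterByExpr at its default minimum of 10 counts. The fit was first run on simulated counts in which few genes changed. That run does not test the fit where most genes change, as they did here. Adjusted p-values follow Benjamini and Hochberg and cover all tested genes. An SE is the log2 fold change divided by the square root of the F statistic. With libraries scaled by their totals over the tested genes, no pair of replicates matched within sampling noise. Chi-square over its degrees of freedom was 1.28 for the post-MBT pair and 2.25 to 5.23 for the MBT pairs. TMM factors were not used there, so differences in composition between replicates, such as the mitochondrial share, add to these values. The alternatives were library totals, DESeq2 size factors, upper-quartile factors, the DESeq2 1.42.0 Wald test, no filter, no mitochondrial genes, and each library left out. The members and lists were chosen with earlier results of these data known. Of the listed symbols some matched the table through RefSeq synonyms (GRCz12tu; names only). The genes named are the 5 members, the 4 smallest adjusted p-values of each family or pathway list, 3 nearest genes per member, and counts of 5 or fewer in full; klf4, klf2b, lin28b, ago2, ago4, tarbp2, xpo5, zcchc6, trim71, tfa, cyt1, cyt1l and hnf4a were named after their values were seen. The values of 1 gene that this rule names are not reported here. Promoter motifs were planned and not analysed here. The handling of multiply mapped reads is not given in the sources at hand.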

Additional observations from a re-analysis of the deposited data

How the results depend on the processing

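The rises of pou5f3, sall4 and lin28a were called in all 11 alternatives, with log2 fold changes of 1.45 to 1.90, 1.37 to 1.83 and 0.89 to 1.35. The nanog fall lost its call with DESeq2 size factors (-0.12), upper-quartile factors (-0.11), the DESeq2 Wald test (-0.15) and without mitochondrial genes (-0.14), and ranged from -0.20 to -0.11 with 1 library left out. The klf17 change was called with library totals only (-0.55). The cause of these differences was not tested. Over all genes, 2173 rose with library totals against 3724 with TMM factors, and 2539 fell with the DESeq2 Wald test against 3813 with edgeR. In the family and pathway lists together 23 genes fell with TMM factors, 33 with library totals, 14 with the Wald test and 13 to 23 with 1 library left out (13 without post-MBT A). With 1 library left out, the log2 changes of the pou5f3 ratios were 1.97 to 2.04 (to nanog), 0.50 to 0.61 (lin28a) and 1.95 to 2.06 (klf17), and 0.01 to 0.13 for sall4, whose stages overlap. Leaving out the exonic length cannot change these values. No paired analysis was possible because the count columns carry no replicate number of a sample. With 2 post-MBT libraries, leaving 1 out assumes that the other varies like the MBT libraries. Counts of klf4, lin28b and the let-7 genes were too low to test, and for let-7 the library type is a limit besides depth.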
